A study of Rattus norvegicus with 24 samples.

Results

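Addition of the BET bromodomain inhibitor JQ1 to the D1 dopamine receptor agonist SKF for 60 min was examined in primary striatal neurons of neonatal rats, treated on day 7 in culture. By their titles, 4 of the 23 libraries analysed belong to the comparison: replicates 5 and 6 of SKF plus JQ1 and replicates 5 and 6 of SKF, all from experiment 1. The same experiment holds DMSO (vehicle) and JQ1 groups at 60 min, also replicates 5 and 6. Experiment 2 (DMSO and SKF, 60 min, replicates 1 and 2) served to name SKF-responsive genes from libraries that the comparison does not use, and experiment 3 (SKF and SKF plus JQ1, 24 h, replicates 5 and 6) gave the later time. Total RNA was depleted of ribosomal RNA and sequenced as stranded libraries. The labels give no doses and do not say whether the replicates were separate cultures, so that the p-values reflect the spread of these libraries alone, and that spread may be technical.

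BET proteins bind acetylated lysines of histones through their bromodomains and help recruit P-TEFb, the kinase that releases paused RNA polymerase II into elongation. JQ1 occupies the acetyl-lysine pocket and displaces BET proteins from chromatin. The D1 receptor couples to cyclic AMP and protein kinase A, and through CREB and ERK it switches on immediate early genes in striatal projection neurons.

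Levels are given as FPKM, fragments per kilobase of transcript, scaled to aligned depth, summed over the transcripts of a gene, for replicate 5 and then replicate 6. Changes are log2 differences ± SE of SKF plus JQ1 minus SKF, on the log2(FPKM + 0.5) scale after size-factor scaling, from a limma model of all 23 libraries. Adjusted p-values are Benjamini-Hochberg values over all 13999 genes tested, 0.05 being the threshold. An exact permutation test of 2 libraries against 2 cannot give a two-sided p below 0.333, so single genes are judged by the model. Complete separation of 2 libraries from 2 has that p of 0.333. Where groups are said below to lie apart or not to overlap, this is description and not support. The share of all genes that separate so is not reported here. The 4 libraries held an estimated 33.0 to 45.2 M read pairs in transcripts, and mitochondrially encoded genes took 8.20 to 9.63% of their aligned bases. The 12 pan-neuronal markers summed to between 2388 and 2484 FPKM in SKF and between 2446 and 2491 FPKM in SKF plus JQ1. Of the genes of other cells that such a culture can hold, 13 astrocyte markers summed to between 551 and 728 FPKM in SKF and between 674 and 694 in SKF plus JQ1, and 15 microglia markers to between 100.1 and 147 and between 127 and 137. With all libraries in the main model, the tested markers of the astrocyte, oligodendrocyte, microglia, endothelial, excitatory neuron and interneuron lists did not pass the test. With limma voom on estimated read numbers, and on experiment 1 alone, 1 excitatory neuron marker fell. Without SKF replicate 5, some astrocyte markers were called higher. The median change of the astrocyte markers was 0.13, with 0.33 without SKF replicate 5 and -0.02 without SKF replicate 6. For the microglia markers these medians were 0.09, 0.29 and -0.11. Thbs1 of the fibroblast list fell (-0.38) and Nefm of the pan-neuronal list rose (0.27), and both lost their calls in each of the 4 omissions of a library (adjusted p = 0.06 to 0.25 and 0.066 to 0.4). With bulk RNA, fewer cells of a type and less RNA per cell cannot be told apart.

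The pair of SKF libraries stood apart from each other in activity-dependent genes. Of 31 AP-1 and early transcription factor genes, 28 were higher in SKF replicate 6 than in replicate 5. The share of all genes higher in replicate 6 is not reported here. The size factors were 1.01 for SKF replicate 5 and 0.965 for SKF replicate 6. The 7 AP-1 subunits summed to 435 FPKM in replicate 5 and 593 in replicate 6. In SKF plus JQ1 the same sums were 762 and 749.8 FPKM. Astrocyte and microglia markers ran the other way, at 728 and 147 FPKM in SKF replicate 5 and 551 and 100.1 in replicate 6. Their part in the results for early genes was not tested, and those results are given below with and without each SKF library.

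JQ1 changed 916 genes (6.54% of those tested) in SKF-treated neurons within 60 min. Of these, 383 rose (2.74%) and 533 fell (3.81%), while the median change over all genes was 0.0051. The counts of the gene lists below stand beside these shares of all genes. Changes of at least 1 log2 unit numbered 39 upward and 10 downward, and 2443 genes had an unadjusted p under 0.05. The rises were led by Txnip, Sertad1, Hexim1 and a block of histone genes, and the falls by Drd1 and Myc. Without SKF plus JQ1 replicate 5 the count was 450, without its replicate 6 576, without SKF replicate 6 610 and without SKF replicate 5 662. All 916 genes kept their sign in each of these 4 omissions, and 162 of the rises and 203 of the falls passed in all 4.

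**Figure D1:**
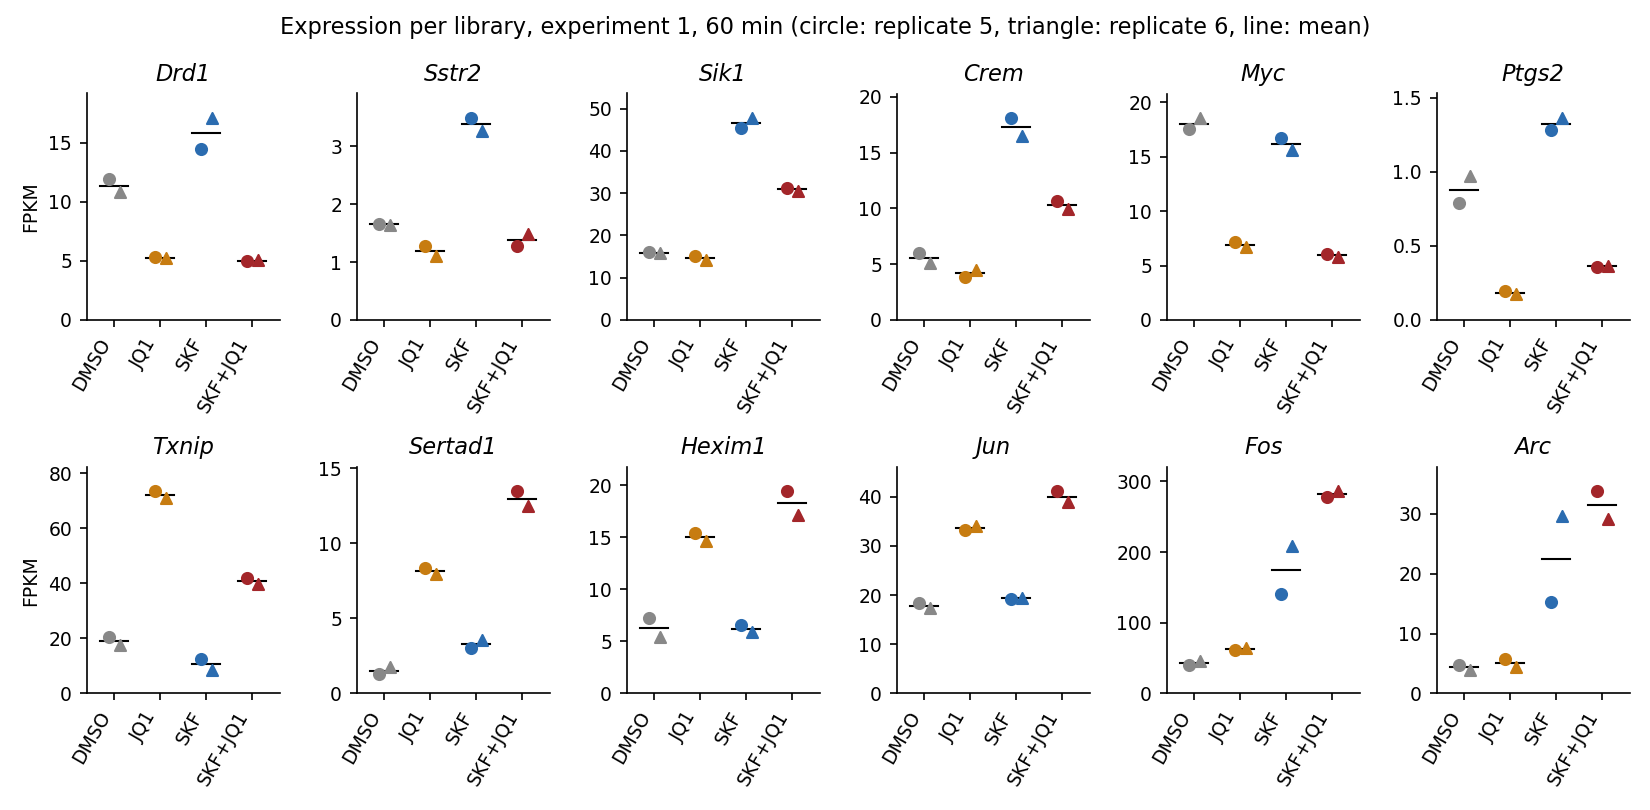
Deposited FPKM (vertical axes, linear, starting at 0) of 12 genes in the 8 libraries of experiment 1 at 60 min; circles are replicate 5, triangles replicate 6 and lines the mean of both. Drd1, Sstr2, Sik1, Crem, Myc and Ptgs2 are lower in SKF plus JQ1 than in SKF, Txnip, Sertad1, Hexim1, Jun and Fos are higher, and the Arc libraries of these groups overlap.

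Txnip, a thioredoxin-binding protein of the arrestin family that limits glucose uptake (chromosome 2, 198683159 to 198686974, Rnor_6.0), measured 12.6 and 8.69 FPKM in SKF and 41.9 and 39.8 in SKF plus JQ1, a rise of 1.92 ± 0.13 (adjusted p = 1.4e-07). Sertad1, a co-regulator of the cell cycle (chromosome 1, 84293102 to 84296367), measured 3.02 and 3.57 FPKM and then 13.5 and 12.5, a rise of 1.84 ± 0.15 (adjusted p = 3.9e-07). In both genes the groups were far apart, the means of SKF plus JQ1 being 3.84 and 3.94 times those of SKF. Of the 5 Txnip and arrestin-domain genes tested, Arrdc2 also rose, from 0.511 and 0.508 to 1.22 and 1.03 FPKM (0.69 ± 0.10), and the other 3 did not pass.

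Hexim1 encodes the protein that, with 7SK RNA, holds P-TEFb in an inactive complex, and its transcript is a common readout of BET inhibition. It measured 6.54 and 5.92 FPKM in SKF and 19.4 and 17.1 in SKF plus JQ1, a rise of 1.48 ± 0.09 (adjusted p = 7.3e-09) that brought the mean to 2.93 times that of SKF. Of 27 P-TEFb and pause-release genes tested, 2 rose and 2 fell (7.41% each), with a median of -0.03. Ell2, an elongation factor of the super elongation complex, fell from 14.2 and 12.3 to 8.33 and 8.15 FPKM (-0.65 ± 0.09). Ccnt1, the cyclin of P-TEFb, fell by 0.24 ± 0.05, a call lost without SKF replicate 6 (an adjusted p of 0.083) or SKF plus JQ1 replicate 5 (0.16). Mepce, the capping enzyme of 7SK RNA, rose by 0.29 ± 0.08 and lost its call in each of the 4 omissions (adjusted p = 0.057 to 0.38) and with FPKM as deposited (0.083). Cdk9, the kinase itself, measured 17.8 and 16.4 FPKM and then 18.8 and 18.1 and did not pass (0.11 ± 0.06, adjusted p = 0.31). None of the 3 BET genes tested passed, with changes from -0.02 to 0.19, and that of Brd3 had a 95% interval of -0.04 to 0.14.

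Myc, the growth-promoting transcription factor (chromosome 7, 102586313 to 102591240), fell from 16.7 and 15.6 FPKM to 6.06 and 5.83 (-1.37 ± 0.08, adjusted p = 7.3e-09). The mean of SKF plus JQ1 was 63.2% below that of SKF. Its paralogue Mycn fell by 0.40 ± 0.07, and Mxd1, a repressor that competes with Myc for Max, rose by 0.37 ± 0.06. The other 9 of 12 network genes tested did not pass. Of 28 cell cycle regulators tested, 4 rose (Sertad1, Pcna, Ccnd3 and Ccng2) and 1 fell (Sertad4, -0.55 ± 0.06). These were 14.3% and 3.57% of the list, against 2.74% and 3.81% of all genes. Pcna, the replication clamp, went from 26.3 and 27.9 to 40.02 and 38.7 FPKM, and Ccnd3, a D-type cyclin, from 7.71 and 6.997 to 10.7 and 9.58.

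Replication-dependent histone genes, whose mRNAs end in a stem-loop in place of a poly(A) tail and so remain in libraries made by removal of ribosomal RNA, had the highest median of the lists. Of 33 tested, 28 rose and none fell, with a median of 1.15. Hist1h2bq, an H2B gene (chromosome 17, 43679925 to 43689311), measured 22.2 and 20.5 FPKM in SKF and 50.2 and 48.7 in SKF plus JQ1 (1.20 ± 0.04, adjusted p = 4.8e-11). The H4 gene Hist1h4m went from 55.9 and 59.6 to 127 and 109 FPKM (1.03 ± 0.07), and the linker histone H1f2 from 41.3 and 39.3 to 75.5 and 74.4 (0.89 ± 0.07). In each of these genes both libraries with JQ1 lay above both without it. The 35 listed genes summed to 522 and 511 FPKM in SKF and 980.1 and 919 in SKF plus JQ1. Between 22 and 26 members passed with any 1 of the 4 libraries left out. Copies of these genes are nearly identical, so the value of a single histone symbol is uncertain. Without SKF, JQ1 also raised 28 of the 33.

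The promoters of 3 of these rising genes are shown, as GRCr8 windows of RefSeq from 250 bases before to 50 after the start, 5′ to 3′ on the strand of the gene: Hexim1 (chr10:88562639-88562938, plus strand), Sertad1 (chr1:91903047-91903346, plus strand) and Hist1h2bq (chr17:41869292-41869591, minus strand). Capitals mark the CCAAT box, the letters TATAAA of a TATA box and the letters TGACGT of a cyclic AMP element, on either strand.
Hexim1: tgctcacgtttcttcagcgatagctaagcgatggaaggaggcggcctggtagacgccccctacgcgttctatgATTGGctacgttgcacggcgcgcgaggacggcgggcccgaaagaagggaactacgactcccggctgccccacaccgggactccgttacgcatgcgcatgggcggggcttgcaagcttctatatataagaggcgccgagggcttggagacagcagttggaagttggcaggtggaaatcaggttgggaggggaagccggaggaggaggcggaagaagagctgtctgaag
Sertad1: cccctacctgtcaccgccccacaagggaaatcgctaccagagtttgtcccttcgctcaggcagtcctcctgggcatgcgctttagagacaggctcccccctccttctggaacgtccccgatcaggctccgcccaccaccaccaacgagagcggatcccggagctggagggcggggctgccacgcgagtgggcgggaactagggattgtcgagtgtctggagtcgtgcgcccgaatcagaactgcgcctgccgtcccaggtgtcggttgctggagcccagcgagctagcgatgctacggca
Hist1h2bq: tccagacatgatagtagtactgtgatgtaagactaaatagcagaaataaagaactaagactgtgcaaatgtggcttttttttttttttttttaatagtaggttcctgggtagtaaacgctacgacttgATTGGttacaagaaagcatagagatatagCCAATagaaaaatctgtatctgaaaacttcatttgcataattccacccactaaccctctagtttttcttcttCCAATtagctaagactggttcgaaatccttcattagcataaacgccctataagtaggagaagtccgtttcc
Hist1h2bq held 3 copies of CCAAT and Hexim1 held 1, while Sertad1 held none of the marked letters. CCAAT on either strand stood in 55.2% of the 268 promoters matched among the rises, 38.0% of 395 among the falls and 37.6% of 9841 among all genes tested. For TATAAA the shares were 18.7%, 7.09% and 6.48%, and without the histone list 15.4% of the rises held it. A match describes the letters of the window and not a bound site.

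Drd1, the gene of the receptor that SKF activates, had the largest fall among the named genes. It measured 11.9 and 10.8 FPKM in DMSO, 14.5 and 17.1 in SKF, 5.32 and 5.24 in JQ1, and 4.98 and 5.08 in SKF plus JQ1 (chromosome 17, 11101306 to 11103541). Both JQ1 groups lay well below both groups without JQ1, and the mean of SKF plus JQ1 was 68.2% below that of SKF (-1.55 ± 0.09, adjusted p = 7.3e-09). Of 26 striatal receptor and signalling genes tested, 4 fell (15.4%, against 3.81% of all genes) and none rose, with a median of -0.05. Gpr52, an orphan receptor of D2-type neurons, fell from 5.31 and 5.18 to 2.27 and 2.43 FPKM (-1.01 ± 0.09), Gpr6, another receptor of the indirect pathway, from 21.9 and 23.1 to 12.03 and 10.4 (-0.97 ± 0.13), and the mu opioid receptor Oprm1 from 20.2 and 19.5 to 13.5 and 14.4 (-0.49 ± 0.07). These 4 falls passed with each of the 4 libraries left out. Drd2, the D2 receptor, measured 32.9 and 34.5 FPKM and then 33.3 and 30.8, with an interval of -0.23 to 0.10. Ppp1r1b, which encodes DARPP-32, had an interval of -0.26 to 0.37, and the peptide genes Penk and Pdyn had changes of -0.11 and 0.03, none passing.

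Transcription factors of striatal identity gave 6 rises and 1 fall among 24 tested, with a median of 0.03. The rises were 25% of the list, against 2.74% of all genes. The fall was 4.17%, near the 3.81% of all genes. It is not reported here by name, and the lowest change of the list was -0.68. Dlx5, a homeobox factor of GABAergic forebrain neurons, went from 38.2 and 37.6 FPKM to 67.2 and 67.6 (0.83 ± 0.06, adjusted p = 4.4e-08), and Dlx2 from 21.3 and 17.9 to 33.5 and 29.95 (0.69 ± 0.08). Zfp503, Dlx6 and Sp9 rose by 0.59, 0.38 and 0.36. Isl1, a factor of D1-type neurons, rose by 0.28 ± 0.08 and lost its call in each of the 4 omissions (adjusted p = 0.078 to 0.21).

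Receptors for neuropeptides and amines gave 8 falls (23.5%, against 3.81% of all genes) and no rise among 34 tested, with a median of -0.21. Sstr2, a somatostatin receptor (chromosome 10, 102136283 to 102143434), measured 1.66 and 1.64 FPKM in DMSO, 3.49 and 3.27 in SKF, and 1.27 and 1.49 in SKF plus JQ1 (-1.05 ± 0.10, adjusted p = 1.3e-06). Both libraries with SKF plus JQ1 lay under the DMSO level. The melanocortin receptor Mc4r fell from 4.24 and 3.24 to 1.65 and 1.77 FPKM (-0.93 ± 0.10) and the neuropeptide Y receptor Npy1r from 9.47 and 10.8 to 4.93 and 5.59 (-0.88 ± 0.09). The serotonin receptor Htr1b fell by 0.64 ± 0.11 and the somatostatin receptor Sstr4 by 0.51 ± 0.08. Hrh2 fell by 0.55 and lost its call in each of the 4 omissions (adjusted p = 0.065 to 0.1). Gpr22 fell by 0.40, a call lost without SKF replicate 6 (an adjusted p of 0.052) or SKF plus JQ1 replicate 5 (0.16), and Htr2a by 0.36, lost without SKF replicate 6 (an adjusted p of 0.32), SKF plus JQ1 replicate 5 (0.27) or SKF plus JQ1 replicate 6 (0.076).

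Potassium channels gave 7 falls (13.5%, against 3.81% of all genes) and no rise among 52 tested, with a median of -0.08. Kcns2, a silent subunit that modifies delayed rectifiers, fell from 7.23 and 8.02 FPKM to 3.20 and 3.32 (-1.11 ± 0.09, adjusted p = 5.2e-07). Kcna4, an A-type channel, fell from 14.5 and 14.3 to 7.14 and 7.95 (-0.89 ± 0.08), Kcnj11, a pore subunit of ATP-sensitive channels, from 1.87 and 1.76 to 0.835 and 0.830 (-0.80 ± 0.08), and the silent subunit Kcnf1 from 17.2 and 21.8 to 11.5 and 11.1 (-0.75 ± 0.09). The calls of the other 3 were lost with a library left out: Kcna2 (-0.43) without SKF replicate 6 (an adjusted p of 0.069), Kcnk1 (-0.45) without SKF replicate 6 (an adjusted p of 0.17), SKF plus JQ1 replicate 5 (0.072) or SKF plus JQ1 replicate 6 (0.11), and Kcnj2 (-0.43) without SKF replicate 6 (an adjusted p of 0.33), SKF plus JQ1 replicate 5 (0.13) or SKF plus JQ1 replicate 6 (0.21). None of 23 glutamate receptor genes and none of 20 GABA genes passed, with medians of 0.0034 and -0.04. Of 28 sodium and calcium channel genes 1 fell, a share of 3.57% near the 3.81% of all genes. It was Cacng3 (-0.34 ± 0.09), a call lost without SKF replicate 6, SKF plus JQ1 replicate 5 or SKF plus JQ1 replicate 6.

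**Figure D2:**
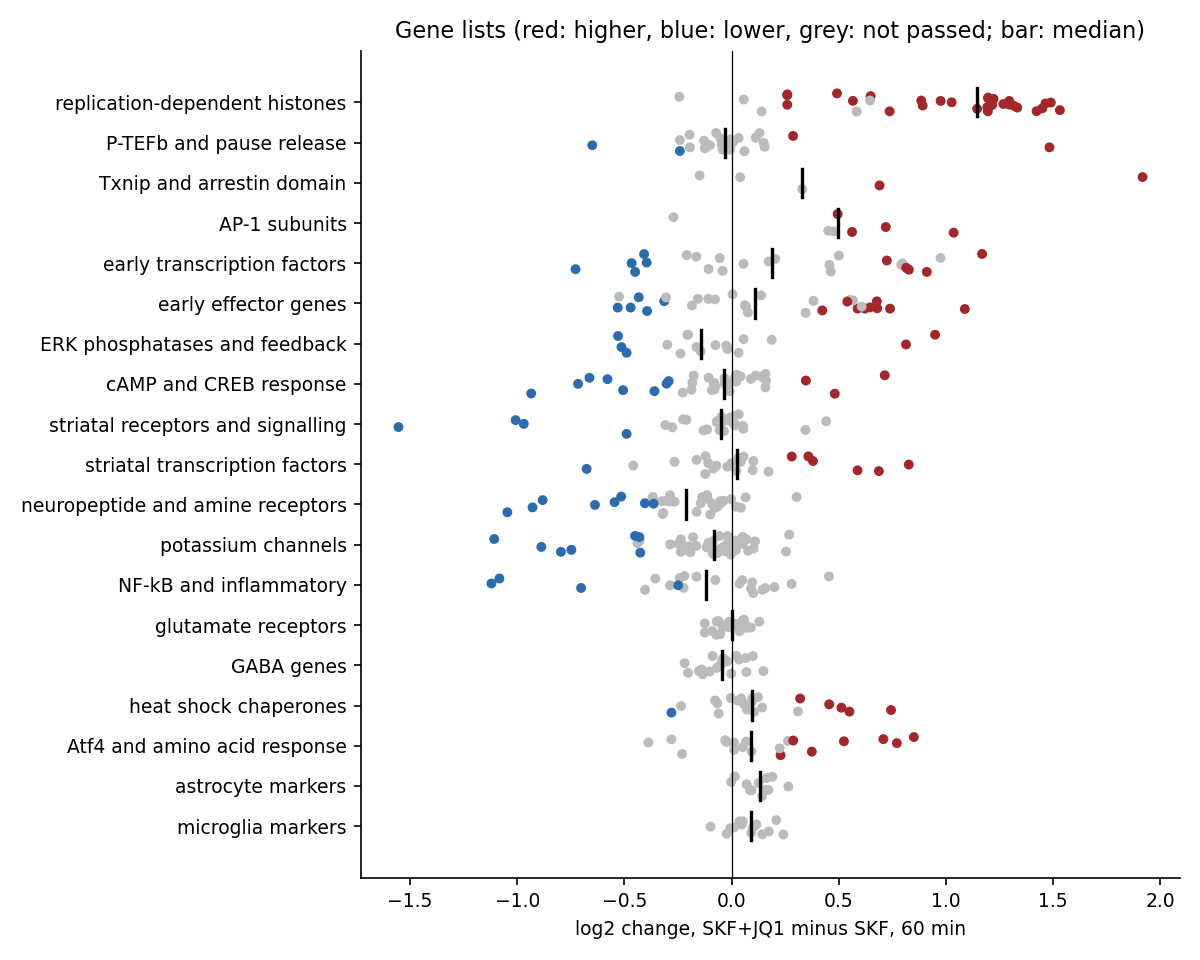
Log2 change of SKF plus JQ1 minus SKF (horizontal axis) of the tested members of 19 gene lists, each point 1 gene; red points rose, blue fell, grey did not pass, and bars are medians. Histone genes have a median of 1.15 and AP-1 subunits of 0.50, while the potassium channel and neuropeptide receptor lists hold blue points and no red ones.

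Immediate early transcription factors, which neurons switch on within minutes of stimulation, moved in both directions. Jun, an AP-1 subunit, measured 18.3 and 17.4 FPKM in DMSO, 19.3 and 19.4 in SKF, and 41.1 and 38.99 in SKF plus JQ1 (1.04 ± 0.05, adjusted p = 9.3e-10). Jund rose from 98.5 and 99.1 to 142 and 136 FPKM (0.50 ± 0.05). Fos measured 141 and 208 FPKM in SKF and 278 and 286 in SKF plus JQ1 (0.72 ± 0.17, adjusted p = 0.022), and Junb 90.1 and 129 and then 162 and 155 (0.56 ± 0.14, adjusted p = 0.019). The libraries with JQ1 lay above both SKF libraries in these 4 genes. Fosb (0.45, adjusted p = 0.42), Fosl1 (0.48, 0.17) and Fosl2 (-0.27, 0.12) did not pass, so that 4 of 7 AP-1 subunits rose, with a median of 0.50.

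Among the 24 other early transcription factors 5 rose and 5 fell (20.8% each, against 2.74% and 3.81% of all genes). Ier2 rose from 11.9 and 16.2 to 25.1 and 27.8 FPKM (0.91 ± 0.12), Ier5 from 2.32 and 2.52 to 6.41 and 5.69 (1.17 ± 0.11) and Klf2 by 0.82 ± 0.12. Npas4, an activity-dependent factor of neurons, measured 29.2 and 47.1 and then 61.6 and 70.8 FPKM (0.83 ± 0.21, adjusted p = 0.026), and Egr3 68.04 and 109.7 and then 148 and 137 (0.72 ± 0.19, adjusted p = 0.035). In all 5 the groups did not overlap, which with 2 libraries against 2 has a p of 0.333 by the exact permutation test. Klf5 fell from 7.91 and 9.10 to 4.99 and 4.84 FPKM (-0.73 ± 0.09). The nuclear receptor Nr4a2, the largest SKF rise of experiment 2, measured 5.59 and 4.61 FPKM in DMSO, 31.3 and 36.98 in SKF, and 33.8 and 32.2 in SKF plus JQ1, with an interval of -0.26 to 0.18. Nr4a1 (0.50, adjusted p = 0.33), Nr4a3 (-0.11, 0.69), Egr1 (0.80, 0.074) and Egr2 (0.79, 0.06) did not pass.

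Several of these values turned on 1 library. Without SKF replicate 6, the library with the higher early gene levels, 6 of 7 AP-1 subunits and 9 of 24 early factors rose, and Egr1 (1.30, adjusted p = 5.7e-05) and Arc (1.05, adjusted p = 0.00041) passed. Without SKF replicate 5, 2 AP-1 subunits and 3 early factors rose, and Fos (0.41, adjusted p = 0.18), Junb (0.28, 0.18), Npas4 (0.46, 0.19) and Egr3 (0.35, 0.22) did not pass. These 4 genes also missed the threshold without SKF plus JQ1 replicate 5 (adjusted p = 0.11, 0.13, 0.07 and 0.22) or replicate 6 (adjusted p = 0.12, 0.078, 0.17 and 0.1). Jun, Jund, Ier2, Ier5, Klf2 and Klf5 passed in all 4 omissions. Of the other falls, Bhlhe40 (-0.45) was lost without SKF replicate 6 (an adjusted p of 0.075), Ier5l (-0.41) without SKF replicate 5 (an adjusted p of 0.12) or SKF plus JQ1 replicate 6 (0.1), Nab2 (-0.47) without SKF replicate 6 (an adjusted p of 0.14) or SKF plus JQ1 replicate 6 (0.089), and Klf6 (-0.40) without SKF replicate 5 (an adjusted p of 0.13) or SKF plus JQ1 replicate 6 (0.18).

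Early effector genes were also divided, with 9 rises and 5 falls among 30 tested, against 2.74% and 3.81% of all genes. Gadd45b, a stress-inducible gene, rose from 3.08 and 3.999 to 8.41 and 7.62 FPKM (1.09 ± 0.14), and the antiproliferative Tob1 from 26.8 and 26.1 to 44.7 and 44.2 (0.74 ± 0.06). Tob2 and the kinase Pim3 rose by 0.68 and 0.68. Trib2, a pseudokinase, fell from 21.9 and 21.6 to 14.5 and 15.1 FPKM (-0.53 ± 0.07), and Sgk1, a kinase induced by glucocorticoids, by 0.39 ± 0.06. Without SKF replicate 5 the list gave 6 rises and 6 falls, without SKF replicate 6 it gave 11 and 3, and without SKF plus JQ1 replicate 5 or replicate 6, 6 and 3 each. Gadd45b, Tob1, Tob2, Pim3, Btg1, Plk3, Trib2 and Sgk1 passed in all 4 omissions. Ier3 (0.62) passed in none of them (adjusted p = 0.077 to 0.12). Gadd45a (0.59) lost its call without SKF replicate 5 (an adjusted p of 0.067), SKF plus JQ1 replicate 5 (0.054) or SKF plus JQ1 replicate 6 (0.056), and Pim1 (0.65) without SKF replicate 5 (an adjusted p of 0.15), SKF plus JQ1 replicate 5 (0.062) or SKF plus JQ1 replicate 6 (0.08). Of the falls, Btg3 (-0.31) was lost without SKF replicate 5 (an adjusted p of 0.38), SKF plus JQ1 replicate 5 (0.28) or SKF plus JQ1 replicate 6 (0.13), Rgs4 (-0.47) without SKF replicate 6 (an adjusted p of 0.19), SKF plus JQ1 replicate 5 (0.091) or SKF plus JQ1 replicate 6 (0.07), and Arl5b (-0.43) without SKF replicate 6 (an adjusted p of 0.058). Arc, a plasticity gene whose protein works at synapses, measured 15.3 and 29.6 FPKM in SKF and 33.7 and 29.1 in SKF plus JQ1 (0.55 ± 0.23, adjusted p = 0.21), the groups overlapping. Btg2 measured 17.4 and 26.3 and then 18.9 and 18.5 FPKM, also overlapping (-0.18 ± 0.15, adjusted p = 0.6). Without SKF replicate 5 its change was -0.51 (adjusted p = 0.015), and without SKF replicate 6 it was 0.14 (0.65).

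Feedback genes of the ERK pathway gave 2 rises and 3 falls among 17 tested (11.8% and 17.6%, against 2.74% and 3.81% of all genes). There were 5 falls with FPKM as deposited or with the replicate number as a block. Errfi1, an inhibitor of the EGF receptor, rose from 13.8 and 13.6 to 28.1 and 25.6 FPKM (0.95 ± 0.06), and the ERK phosphatase Dusp5 from 5.52 and 6.69 to 10.9 and 11.1 (0.81 ± 0.10). Dusp10, a phosphatase of stress kinases, fell from 7.09 and 7.31 to 5.002 and 4.65 FPKM (-0.53 ± 0.07) and Dusp4 by 0.51 ± 0.07. Dusp16 fell by 0.49 ± 0.10, a call lost without SKF replicate 5 (an adjusted p of 0.078) or SKF plus JQ1 replicate 5 (0.075). Dusp1, among the 10 largest SKF rises of experiment 2, measured 17.7 and 21.6 and then 22.9 and 21.7 FPKM and did not pass (0.19 ± 0.10, adjusted p = 0.36).

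A list of genes of the cyclic AMP and CREB response had 37 tested members. SKF raised 9 of them in experiment 2, where it raised 2.02% of all genes. With JQ1 added to SKF the list gave 8 falls and 3 rises, with a median of -0.03. These were 21.6% and 8.11% of the list, against 3.81% and 2.74% of all genes. Crem, whose products include inducible repressors of CREB (chromosome 17, 57031766 to 57090888), measured 5.98 and 5.13 FPKM in DMSO, 18.1 and 16.5 in SKF, and 10.7 and 9.97 in SKF plus JQ1 (-0.72 ± 0.08, adjusted p = 2.1e-05). Sik1, a salt-inducible kinase that restrains the CREB coactivators (chromosome 20, 10668411 to 10680283), measured 16.1 and 15.8, 45.4 and 47.9, and 31.3 and 30.6 FPKM in the same groups (-0.58 ± 0.05, adjusted p = 9.9e-07). With JQ1 present both genes lay between the DMSO and the SKF libraries. Inhba, a subunit of activins, fell from 1.59 and 1.42 to 0.608 and 0.494 FPKM (-0.94 ± 0.13), and the hormone gene Stc1 (-0.51) and Pde4d, a cyclic AMP phosphodiesterase (-0.30), fell too. Bdnf, a neurotrophin of low level here, went from 0.910 and 1.41 to 0.601 and 0.481 FPKM (-0.66 ± 0.17, adjusted p = 0.026), a call lost without SKF replicate 6 (an adjusted p of 0.31), SKF plus JQ1 replicate 5 (0.086) or SKF plus JQ1 replicate 6 (0.18). Fbxo33, an F-box protein, rose from 10.9 and 12.7 to 19.4 and 19.8 FPKM (0.72 ± 0.07). The secretory genes Vgf (0.48) and Scg2 (-0.29) moved apart, Vgf losing its call without SKF replicate 5 (an adjusted p of 0.24), SKF plus JQ1 replicate 5 (0.3) or SKF plus JQ1 replicate 6 (0.052) and Scg2 without SKF replicate 5 (an adjusted p of 0.21), SKF plus JQ1 replicate 5 (0.068) or SKF plus JQ1 replicate 6 (0.14). Nptx2 (0.35, adjusted p = 0.054 to 0.33) and Pcsk1 (-0.36, 0.061 to 0.16) passed with all libraries and in none of the 4 omissions.

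The genes that SKF itself raises were taken from experiment 2, which gave 283 (2.02% of those tested) and 42 that SKF lowered (0.3%). Of the 283, 83 were lower (29.3%) and 48 higher (17.0%) with JQ1 added to SKF in experiment 1, beside 3.81% and 2.74% of all genes, and 152 did not pass. For 54 of the 83, the mean of SKF plus JQ1 lay below that of DMSO in experiment 1. The 52 genes raised by at least 1 log2 unit divided into 7 lower, 15 higher and 30 not passed. The 10 largest SKF rises were Nr4a2, Btg2, Junb, Arc, Dusp1, Tiparp, Nr4a1, Fos, Egr4 and Fosb, of which Junb and Fos rose with JQ1 and the other 8 did not pass. Of the 42 lowered by SKF, 8 rose and 5 fell with JQ1. Without SKF replicate 5, 80 of the 283 were lower and 28 higher, and without replicate 6, 53 and 62. Without SKF plus JQ1 replicate 5 the counts were 55 and 26, and without its replicate 6, 56 and 35.

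Beside Drd1, Sstr2, Mc4r, Crem and Sik1, further SKF-raised genes that fell were of several kinds. Tent5b, a poly(A) polymerase, measured 0.109 and 0.167 FPKM in DMSO, 0.913 and 1.29 in SKF, and 0.261 and 0.196 in SKF plus JQ1 (-1.14 ± 0.13). The secreted protease Adamts1 went from 2.24 and 1.59 to 0.601 and 0.605 FPKM (-1.12 ± 0.11). Ptgs2, the inducible prostaglandin synthase, went from 1.28 and 1.36 to 0.359 and 0.365 (-1.08 ± 0.10), below its DMSO values of 0.788 and 0.969. Klf14, a zinc-finger factor, measured 1.76 and 2.05 in DMSO, 3.32 and 3.88 in SKF, and 1.85 and 1.89 in SKF plus JQ1 (-0.78 ± 0.11), which lies within the DMSO values. B630019K06Rik, Tnfaip6, Rasd1 and Rara fell by 1.03, 0.90, 0.73 and 0.49.

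**Figure D3:**
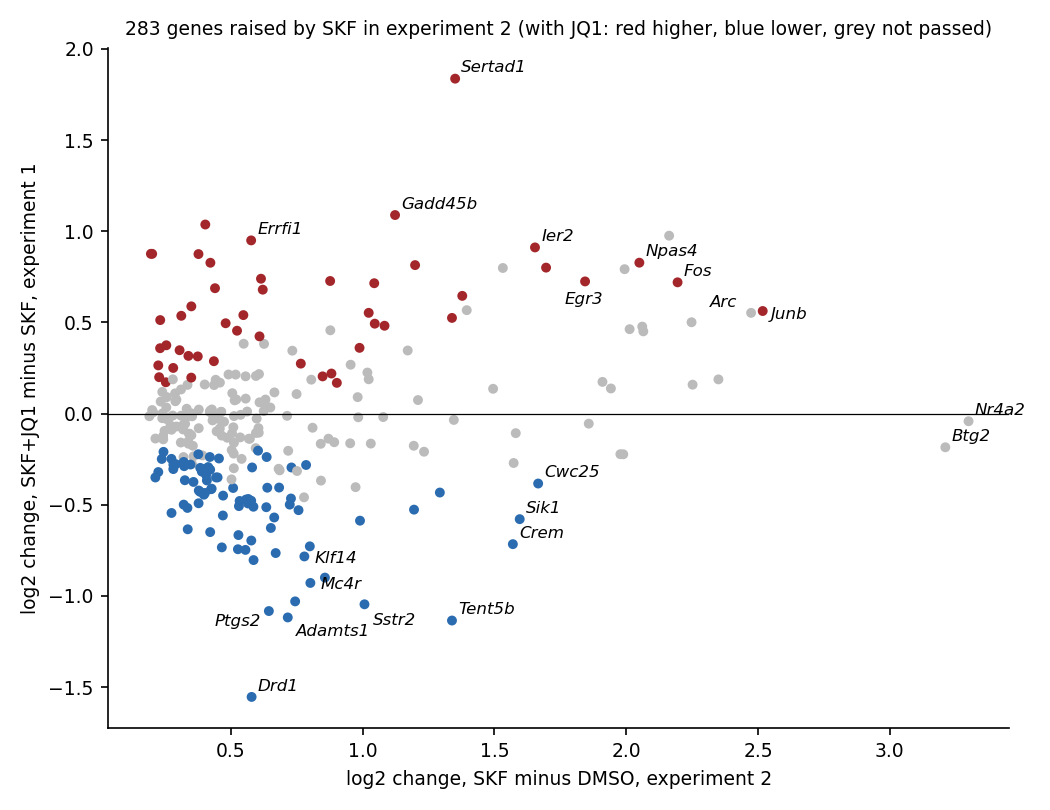
Each point is 1 of the 283 genes raised by SKF in experiment 2, with that log2 rise on the horizontal axis and the log2 change of SKF plus JQ1 minus SKF in experiment 1 on the vertical axis; red genes rose with JQ1, blue fell and grey did not pass. Of the 52 genes with an SKF rise of at least 1 log2 unit, 15 are red and 7 blue, and Drd1 lies at -1.55.

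Promoters of 4 SKF-raised genes that fell are shown because their letters differ at TGACGTCA, the element that CREB binds, and its core TGACGT. They are Sik1 (chr20:9958597-9958896, minus strand), Sstr2 (chr10:99163103-99163402, plus strand), the most downstream of 3 Crem windows (chr17:58985240-58985539, plus strand) and Drd1 (chr17:10546354-10546653, plus strand), from the same RefSeq table of GRCr8 and with the same letters in capitals. Sstr2 and this Crem window were chosen after their values were seen.
Sik1: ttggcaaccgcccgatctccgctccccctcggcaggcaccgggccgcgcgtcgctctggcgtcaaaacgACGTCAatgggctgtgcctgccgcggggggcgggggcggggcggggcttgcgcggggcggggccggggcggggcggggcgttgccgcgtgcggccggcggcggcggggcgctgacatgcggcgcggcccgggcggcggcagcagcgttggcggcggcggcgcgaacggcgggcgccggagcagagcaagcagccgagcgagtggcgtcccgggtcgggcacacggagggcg
Sstr2: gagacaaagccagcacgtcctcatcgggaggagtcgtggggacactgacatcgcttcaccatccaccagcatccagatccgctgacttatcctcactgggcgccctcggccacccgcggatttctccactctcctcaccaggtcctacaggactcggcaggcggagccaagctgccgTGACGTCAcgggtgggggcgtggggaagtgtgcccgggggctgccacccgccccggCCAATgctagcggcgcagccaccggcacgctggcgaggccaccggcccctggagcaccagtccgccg
Crem: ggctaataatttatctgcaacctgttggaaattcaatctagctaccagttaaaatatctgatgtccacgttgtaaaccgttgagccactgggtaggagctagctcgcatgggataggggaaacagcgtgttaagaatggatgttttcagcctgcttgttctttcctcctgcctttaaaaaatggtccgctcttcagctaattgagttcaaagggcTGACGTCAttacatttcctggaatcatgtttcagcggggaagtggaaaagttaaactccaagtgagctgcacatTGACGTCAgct
Drd1: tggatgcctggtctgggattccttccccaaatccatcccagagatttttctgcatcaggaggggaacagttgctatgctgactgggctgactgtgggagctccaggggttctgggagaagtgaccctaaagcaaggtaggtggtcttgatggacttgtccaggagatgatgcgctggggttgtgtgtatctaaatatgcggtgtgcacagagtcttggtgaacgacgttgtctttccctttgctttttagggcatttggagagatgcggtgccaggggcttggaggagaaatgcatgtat
Crem held 2 copies of TGACGTCA and Sstr2 held 1, Sik1 held TGACGT once, and Drd1 held none of the marked letters. TGACGT on either strand, which includes every TGACGTCA, stood in 11.8% of the 9841 promoters matched among all genes tested. It stood in 23.1% of 65 promoters of the SKF-raised genes that fell, 35.3% of 34 of those that rose and 33.0% of 112 of those that did not pass. For TGACGTCA the shares in the same order were 3.21%, 7.69%, 23.5% and 12.5%. These shares are descriptions with no test, and the groups of promoters are small.

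JQ1 given without SKF, against DMSO, shares no library with the comparison and gave 616 calls (4.4% of the genes tested), 261 higher (1.86%) and 355 lower (2.54%). The balance turned without DMSO replicate 5, to 321 higher and 294 lower, and was 204 against 423 with FPKM as deposited. Without DMSO replicate 6 the counts were 171 and 188, and without JQ1 replicate 5 or 6, 151 and 165 or 180 and 211. Of the 383 rises with SKF, 210 also rose without it, 54.8% of the first list and 80.5% of the second. Of the 533 falls, 256 also fell without SKF, 48.0% and 72.1%. No gene was called in opposite directions, and 373 of the rises and 524 of the falls had the same sign. Txnip changed by 1.92 with SKF and 1.94 without it, Hexim1 by 1.48 and 1.23, Hist1h2bq by 1.20 and 1.18, and Myc by -1.37 and -1.29. Of the SKF-raised genes, 35 of the 48 that rose also rose without SKF, and 28 of the 83 that fell also fell.

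The test of the difference itself, the JQ1 change with SKF minus that without it, called 1 gene (0.00714% of those tested), and 459 had an unadjusted p under 0.05. The gene was Sik1. It measured 15.1 and 14.3 FPKM with JQ1 alone against 16.1 and 15.8 in DMSO, and the difference was -0.49 ± 0.07 (adjusted p = 0.047). The call was lost without DMSO replicate 5 (adjusted p = 0.20) or 6 (0.12), JQ1 replicate 5 (0.54) or 6 (0.10), SKF replicate 6 (0.15), or SKF plus JQ1 replicate 5 (0.30) or 6 (0.35), and kept without SKF replicate 5 (0.0070), with differences of -0.56 to -0.42. Over all alternatives its adjusted p ranged from 0.0070 to 0.95. Mapt (-0.35), B630019K06Rik (-0.66), Tent5b (-0.98) and Sstr2 (-0.72) did not pass (adjusted p = 0.16 each). For Drd1 the difference was -0.54, with an interval of -0.82 to -0.26 and an adjusted p of 0.95.

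**Figure D4:**
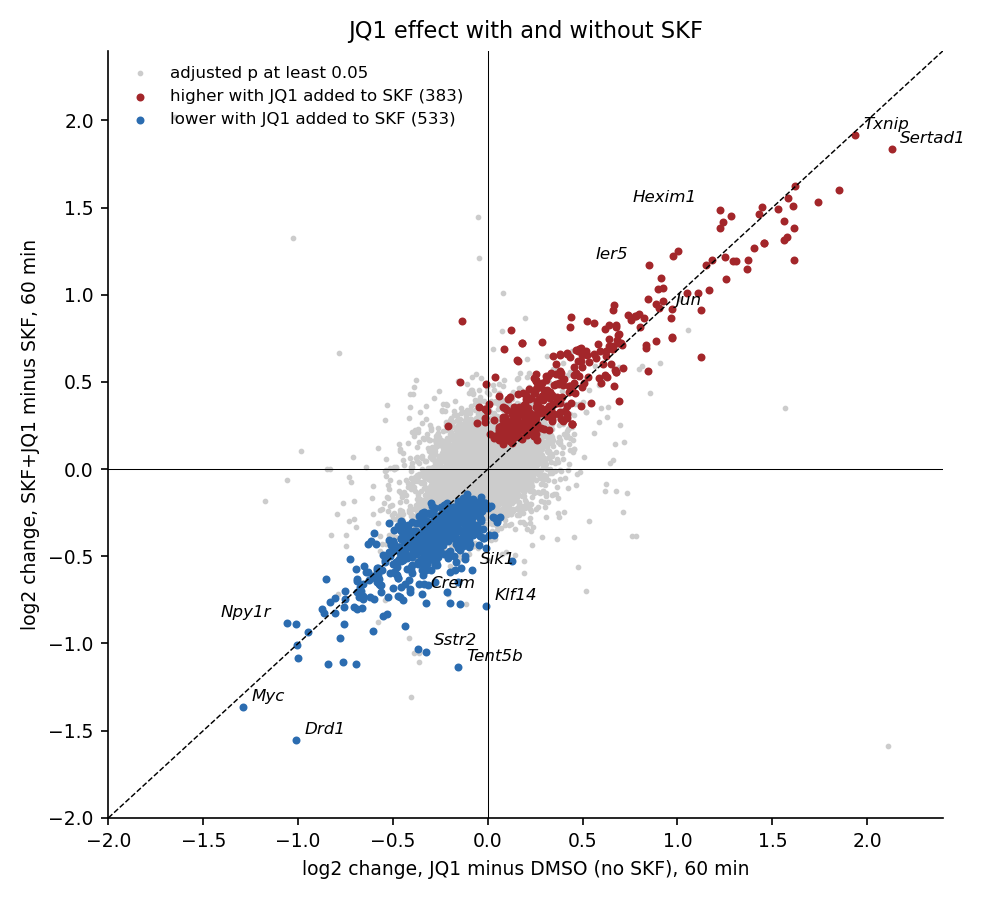
Log2 change with JQ1 in the absence of SKF (horizontal axis) against that in its presence (vertical axis), each point 1 gene, red for the 383 rises and blue for the 533 falls with SKF, the dashed line marking equal changes; 6 genes, 0 of them called, lie outside the axes of -2 to 2.4. Txnip and Myc lie near the line, and Sik1, Sstr2 and Tent5b lie below it.

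At 24 h, in experiment 3, JQ1 added to SKF changed 7897 genes (56.4% of those tested), 3883 higher (27.7%) and 4014 lower (28.7%). Of the 383 rises at 60 min, 305 were also higher at 24 h and 11 lower, 79.6% of the 60-min list and 7.85% of the later one. Of the 533 falls, 284 were also lower and 50 higher, 53.3% and 7.08%. Drd1 measured 13.1 ± 0.0165 FPKM (SD, n = 2) in SKF and 4.63 ± 0.470 in SKF plus JQ1 at 24 h, and Hexim1 5.64 ± 0.219 and 17.7 ± 0.265. The 24 h changes of these genes were -1.34 and 1.64, and their difference from 60 min did not pass (adjusted p = 0.23 and 0.37). That difference was called for 5223 genes (37.3%), 2414 with a higher change at 24 h (17.2%) and 2809 with a lower one (20.1%), among them 152 of the rises and 284 of the falls, whose 60-min values enter both the choice and the difference. Myc changed by -0.50 at 24 h, 0.86 above its 60-min change (adjusted p = 2.5e-05), and Sik1 by 0.22, 0.80 above (adjusted p = 5.1e-07).

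Stress-related lists held more rises than falls, 36.8% of the Atf4 list and 23.8% of the heat shock list being higher. Of 19 Atf4 and amino acid response genes tested, 7 rose and none fell, against 2.74% and 3.81% of all genes. With limma voom on read numbers estimated from coverage the counts were 7 and 1. The median of the list was 0.09, with 0.23 without SKF replicate 5 and -0.03 without SKF replicate 6. It was 0.20 without SKF plus JQ1 replicate 5 and 0.10 without its replicate 6. Ddit3, the factor CHOP, went from 3.50 and 3.71 to 6.96 and 6.80 FPKM (0.85 ± 0.11), the mitochondrial folate enzyme Mthfd2 rose by 0.77 ± 0.14 and Sesn2, an inhibitor of mTORC1, by 0.71 ± 0.07. Atf4 itself rose by 0.23 ± 0.05, a call lost without SKF replicate 5 (an adjusted p of 0.12) or SKF plus JQ1 replicate 5 (0.084). Among 21 heat shock and chaperone genes 5 rose, led by Hspa1b (0.74 ± 0.11) and the endoplasmic reticulum chaperone Hspa5, from 49.01 and 49.3 to 73.5 and 70.5 FPKM (0.55 ± 0.05), and Dnajb5 fell (-0.28), a call lost without SKF replicate 6 (an adjusted p of 0.16) or SKF plus JQ1 replicate 6 (0.11). Of 82 cytosolic ribosomal protein genes, 7 passed, all higher, with a median of 0.15, but these calls turned on the libraries and the scaling. None passed without SKF plus JQ1 replicate 5 or with FPKM as deposited, and 1 passed without its replicate 6, without SKF replicate 6 or with no filter on low values, the median staying between 0.12 and 0.17.

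Inflammatory and NF-kB genes gave 4 falls (18.2%, against 3.81% of all genes) and no rise among 22 tested. Tnfaip3, the feedback inhibitor A20, fell from 2.23 and 2.04 to 0.644 and 0.783 FPKM (-1.12 ± 0.12), beside Ptgs2. Rela (-0.25) and the chemokine Ccl2 (-0.70) also passed, and both lost their calls in each of the 4 omissions (adjusted p = 0.059 to 0.14 and 0.084 to 0.24). Among 22 growth factor genes Inhba, Bdnf, Bmp2 and Igf1 fell and Pdgfa rose, of which Inhba alone passed in all 4 omissions. Bmp2 (-0.44, adjusted p = 0.057 to 0.11) and Pdgfa (0.42, 0.058 to 0.37) passed in none of them, and Igf1 (-0.36) was lost without SKF replicate 5 (an adjusted p of 0.14) or SKF plus JQ1 replicate 5 (0.12). Of 22 histone modifier genes Kat5 fell (-0.36 ± 0.06), and the other 21 did not pass, a share of 4.55% near the 3.81% of all genes.

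The genes that changed had shorter spans than those tested. The span from first to last base had a median of 7.07 kb for the rises (8.41 kb without histone genes), 11.6 kb for the falls and 19.6 kb for all genes tested. Genes over 100 kb made up 2 of the 383 rises and 13 of the 533 falls, against 12.6% of all genes. Single-exon gene models were 23.2% of the rises (17.7% without histone genes), 12.01% of the falls and 8.46% of all. Of the 20 largest rises among the named genes, 17 had a single exon, and 9 of the 20 belonged to the histone list. Genes that SKF raised were short as well, with a median span of 8.41 kb. The median FPKM in SKF was 9.41 for the rises, 7.20 for the falls and 7.28 for all genes.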

How the data were processed

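RNA-seq libraries of 12 groups were used, 23 of the 24 samples labelled. The SKF plus iBD2 replicate 2 was not analysed here, and the lone library of that group is assumed to vary like the others. Per the submitters' processing notes, Trim Galore, FastQC, STAR, StringTie, DESeq2 and Rnor_6.0 were used, with no roles or versions given, and whether counting used strand is unknown from these sources, so that overlapping and antisense genes are uncertain. The authors deposited FPKM per transcript, and the deposited files also hold coverage, a signal per transcript.

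FPKM were summed by gene. Genes with at least 0.5 FPKM in at least 2 libraries and a transcript of at least 200 bases were kept (13999 of 32883). Values were divided by median-ratio size factors (0.947 to 1.07), 0.5 was added, and log2 values were fitted with limma 3.58.1 (trend, robust) in R 4.3.3 with 1 mean per group and 11 residual degrees of freedom. Printed levels are FPKM as deposited. Read pairs were estimated from coverage, at 202 bases a pair. On simulated data for this comparison (13955 genes), 86 of 100 genes changed by 0.5 log2 units and 95 of 100 changed by 1 were called, with 6 false calls among 13755. The changed genes were drawn from those with a mean of at least 2 FPKM, and the simulated spread was independent between genes. These rates therefore do not cover genes of lower level. They also do not cover libraries that deviate in many genes together, as the SKF pair did in early genes. Depth limits the precision of genes at low FPKM.

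The members and lists were chosen with earlier results of these data known. Named genes were the 20 largest rises and 20 largest falls among genes that passed, had a symbol, at least 1 FPKM in the higher group and no overlap between groups, members of the lists, the 10 smallest p-values in each direction for the difference tests, and the 10 largest SKF rises of experiment 2. Alternatives were FPKM without size factors, a pseudocount of 0.1 or 1, testing without the filter, a replicate block, voom on estimated reads, the libraries of experiment 1 alone, and each library left out. Promoters were matched by symbol to a RefSeq table of GRCr8. Some genes counted in the lists are not reported here by name.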

Additional observations from a re-analysis of the deposited data

Results flagged for a closer look

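For 1 gene, Sik1, the JQ1 change with SKF minus that without it passed the test with all libraries, at -0.49 on the log2 scale (adjusted p = 0.047). The call was lost in 7 of the 8 omissions of a library of experiment 1, with a pseudocount of 0.1 (adjusted p = 0.055), under the replicate block (0.067) and on experiment 1 alone (0.95).

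For 20 of the 40 genes with the largest changes at 60 min, the change at 24 h differed from it by the test of the difference (24 h minus 60 min, log2). Among the rises, LOC684762 (-0.72), Hist1h2ail1 (-0.34), Hist1h2ak (-1.07), H2bc9 (-0.75), AABR07027753.2 (-0.85) and Hist1h2bd (-1.14) had smaller changes at 24 h, and LOC102548682 (0.69) a larger one. Among the falls, Myc (0.86), Tent5b (1.14), Adamts1 (0.44), Kcns2 (0.36), Ptgs2 (0.63), Sstr2 (0.44), B630019K06Rik (1.10), Gpr52 (0.34), Gpr6 (0.59), Tnfaip6 (0.68), Kcna4 (0.93), Cxcr4 (0.60) and Zfp563 (0.75) were less negative or near 0 at 24 h. The times come from different experiments, and these genes were chosen by their 60-min changes, which enter the differences.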

How the results depend on the processing

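The count of 916 genes ranged from 450 to 1026 with 1 library of experiment 1 left out, and that of 616 for JQ1 without SKF from 316 to 640, with 394 on experiment 1 alone. The difference between them called 0 genes with a pseudocount of 0.1, 0 under the replicate block, 0 on experiment 1 alone, 7 with no filter on low values, and 0 to 3 with a library left out. SKF against DMSO in experiment 2 gave 204 to 361 calls. Of the SKF-raised genes, 53 to 84 were lower and 26 to 62 higher with a library left out, and 31 were higher on experiment 1 alone. Without SKF replicate 6 the changes of Btg2 and Nr4a2 reversed, to 0.14 (adjusted p = 0.65) and 0.11 (adjusted p = 0.74), and without SKF replicate 5 they were -0.51 and -0.19. The cause was not tested. With FPKM as deposited the share of higher calls went from 49.2 to 38.1% at 24 h and from 46.2 to 34.0% for 24 h minus 60 min, and the median of all genes at 24 h was -0.06. Replicate numbers were treated as numbers only, since each pair of groups shares 2 of them: the deviations of SKF and SKF plus JQ1 correlated at -0.0853 in experiment 1 and at 0.372 in experiment 3, and those of other groups between -0.267 (DMSO and JQ1) and 0.365 (DMSO and SKF plus JQ1), both in experiment 1. With the replicate block 989 genes passed (427 higher, 562 lower), 644 without SKF, and Sik1 lost its difference (adjusted p = 0.067). Crossed numbers gave 624 calls for JQ1 without SKF and 340 for SKF in experiment 2. On experiment 1 alone, JQ1 added to SKF changed 625 genes, 256 higher and 369 lower. In that fit 2 of 7 AP-1 subunits rose and 46 of 303 zinc finger genes fell.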

Other observations

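Zinc finger genes, named so by symbol and picked as a group after their values were seen, gave 68 falls and 8 rises among 307 tested, with a median of -0.11. The falls were 22.1% of the group and the rises 2.61%, against 3.81% and 2.74% of all genes. They made up 12.8% of all 533 falls. Without SKF the counts were 63 falls and 6 rises. Zfp563 measured 3.38 and 3.34 FPKM in SKF and 1.80 and 1.57 in SKF plus JQ1 (-0.82 ± 0.11), and Zbtb39 5.86 and 5.48 and 3.07 and 3.35 (-0.73 ± 0.07). Zfp703 went the other way, from 6.88 and 5.86 to 11.2 and 10.4 FPKM (0.72 ± 0.07). Between 42 and 49 of the group fell with any 1 of the 4 libraries of the comparison left out.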
